A study of Homo sapiens with 6 samples.

Results

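The genes described here set the resistant cultures of the lymphoma line DOHH2 apart from the DOHH2 library labelled WT, without a like difference in the line DAUDI. A gene was taken when its mRNA level differed in the same direction by at least 1 on the log2(FPKM + 1) scale in both resistant DOHH2 libraries. In that direction both resistant DAUDI libraries had to differ by under 0.5 from the DAUDI library labelled WT, or to differ the opposite way. FPKM, fragments scaled to transcript length and to the mapped fragments of the library, was summed over the isoforms of each gene. Among 12337 genes that reached 1 FPKM in some library, 675 met these conditions (5.47%), 320 of them higher (2.59%) and 355 lower (2.88%) in resistant DOHH2. The values chose the genes, so the levels and differences below are a description and no test is given.

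PolyA RNA was sequenced from 6 cultures of established cell lines, with 1 library per group. DOHH2 stands for follicular lymphoma and DAUDI for Burkitt lymphoma, and each line was sequenced as a culture labelled WT, a culture resistant to idelalisib and a culture resistant to ibrutinib. How long the cells were exposed, whether drug was present at harvest and whether the resistant cultures were clones is not given in the sources used here. Levels are given below in the order WT-labelled, idelalisib-resistant and ibrutinib-resistant, for DOHH2 and then for DAUDI, and a difference is always a resistant library minus the WT-labelled library of its line.

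The WT-labelled libraries do not resemble the resistant libraries of their own lines. Over 12186 genes with an isoform of 300 nt or more, Pearson's r across genes was 0.991 between both WT-labelled libraries, against 0.730 and 0.737 between the WT-labelled DOHH2 library and its resistant counterparts, and 0.992 between the resistant DOHH2 libraries. Line of origin and resistance can therefore not be told apart in a difference from the library labelled WT. Both WT-labelled libraries are nearly alike, so an exchange between the lines returns many of the same genes by construction. It cannot show that a gene belongs to the contrast of its own line. When the WT-labelled libraries were exchanged between the lines, 251 of the 320 higher and 247 of the 355 lower genes were chosen again. Of the genes with values below, those not chosen again include BIK, CCL4, CD74, CIITA, DDR1, FLT3LG, GBP1, GLUL, HBA1, HBA2, HBB and HLA-DPB1. They also include HSPA7, IRF9, ITGAL, MCM7, NDRG1, PRKACB, S100A9, SOD2, STXBP6, TAP1 and TLR9. ABHD14A, DEFA1, DEFA3 and NDUFB2 were not chosen again either. Without either WT-labelled library, 247 of the 320 higher genes stood at least 1 above the resistant DAUDI libraries in 4 of 4 pairs of resistant libraries, and 269 of the 355 lower genes at least 1 below, beside 5.67% and 7.48% of all genes tested. The rule used the same resistant libraries, so the choice of genes largely sets these counts and nothing is read from them.

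Idelalisib blocks the delta isoform of PI3K and ibrutinib blocks BTK, kinases that carry the signal of the B cell receptor to AKT, NF-kB and calcium. Follicular and Burkitt lymphoma cells resemble germinal centre B cells, in which antibody genes mutate and MHC class II presents antigen to T cells. MHC class I displays peptides on the surface of nearly all cells, and its heavy chains, peptide transporters and immunoproteasome subunits are induced by interferon together with a large set of antiviral genes. Interferon receptors signal through JAK kinases to a complex that contains IRF9 and binds a short DNA element, the interferon-stimulated response element.

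Among genes that differed by at least 1 in both DOHH2 comparisons, which were 3456 of all tested (28.0%), the DOHH2-only genes made up 19.4% of those higher and 19.7% of those lower. The median difference of the 320 higher genes was 1.61 in idelalisib-resistant and 1.58 in ibrutinib-resistant DOHH2, and that of the 355 lower genes was -1.63 and -1.58. Over all genes tested the medians were 0.08 and 0.03. In DAUDI, 231 of the higher genes differed by under 0.5 either way in both comparisons and 66 differed by at least 0.5 the opposite way in both. Of the lower genes 166 were flat by that measure and 125 opposite. The rule limits the DAUDI differences, so nothing is read from this split. Both resistant DOHH2 libraries lay above all 4 other libraries for 316 of the 320 higher genes, a position that 20.0% of all tested genes hold, and below all 4 for 327 of the 355 lower genes, a position held by 20.3%. The choice of genes largely sets these positions, so nothing is read from them. Between the resistant DOHH2 libraries 286 of the higher (89.4%) and 322 of the lower genes (90.7%) differed by under 0.5, beside 95.2% of all genes. Features under 300 nt, whose FPKM is the least certain, made up 9 of the higher and 17 of the lower genes.

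**Figure D1:**
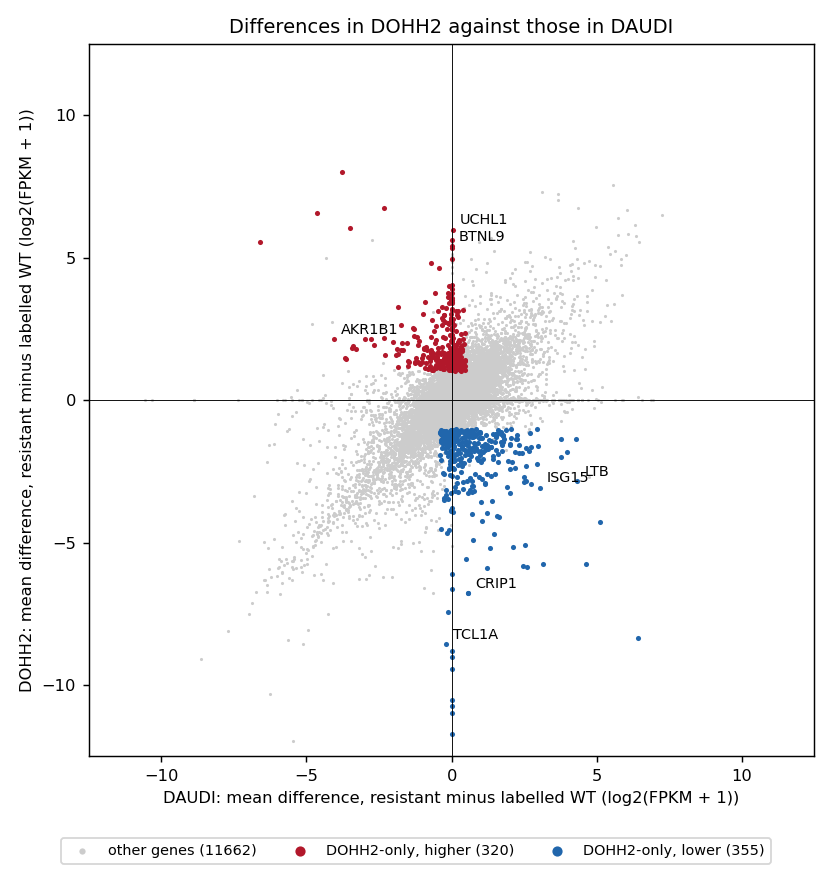
Each point is 1 of 12337 genes, with its mean difference from the WT-labelled library (log2(FPKM + 1)) over both resistant DAUDI libraries on the x axis and over both resistant DOHH2 libraries on the y axis. The 320 higher genes (red) and 355 lower genes (blue) lie near 0 or on the opposite side in DAUDI because the rule chose them so. Blue points lower than TCL1A are microRNA and small nucleolar RNA genes under 300 nt.

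Among the named genes, which leave out features under 300 nt, the largest differences were on the lower side. The leading genes were held at high level by the other 4 libraries and were nearly undetected in resistant DOHH2. TCL1A, an AKT co-activator and lymphoid oncogene at chr14:96176304-96180533 (hg19), stood at 390, 0.049 and 0 FPKM in DOHH2 and at 344, 282 and 320 FPKM in DAUDI. CD48, a surface receptor of the SLAM family, stood at 132, 0 and 0.497 FPKM in DOHH2 and at 113, 175 and 159 FPKM in DAUDI. CRIP1, which encodes a small LIM domain protein, stood at 116, 0 and 0.124 FPKM in DOHH2 and at 113, 163 and 172 FPKM in DAUDI. For all of these genes the resistant DOHH2 libraries were at or near 0 and the DAUDI libraries, resistant or not, were close to the WT-labelled DOHH2 library. TCL1A differed by -8.54 and -8.61 in DOHH2 and by -0.28 and -0.10 in DAUDI. It was not chosen with a DAUDI band of 0.25, nor with its most abundant isoform in place of the sum.

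The TCL1A promoter is shown because this gene had the largest difference of all named genes. The sequence covers the 100 bases before the start site, taken from RefSeq (GRCh38.p14, chr14:95714126-95714225, minus strand), and the capitals mark TATAAA, which was searched on both strands and is found in 11.5% of the 35116 promoters of that table.
TCL1A: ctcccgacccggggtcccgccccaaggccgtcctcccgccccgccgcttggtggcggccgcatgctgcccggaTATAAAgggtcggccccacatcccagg
The motif begins 27 bases before the annotated start. It is a match of letters and was not measured as a bound site.

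IL2RG, the gamma chain shared by the receptors for interleukins such as IL2, IL4 and IL15, stood at 60.3, 0.242 and 0.317 FPKM in DOHH2 and at 55.7, 74.6 and 84.6 FPKM in DAUDI. PLAC8 stood at 33.1, 0 and 0 FPKM in DOHH2 and at 5.41, 32.7 and 39.7 FPKM in DAUDI, so here the WT-labelled libraries differ too. BANK1, a B cell scaffold protein below the receptor, stood at 22.2, 1.10 and 0.919 FPKM in DOHH2 and at 22.8, 57.9 and 65.0 FPKM in DAUDI. IGLL5, in the immunoglobulin lambda locus, stood at 234, 11.5 and 5.59 FPKM in DOHH2 and at 167, 436 and 496 FPKM in DAUDI, and its reads may be shared with lambda segments.

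GLUL, glutamine synthetase, stood at 22, 0 and 0 FPKM in DOHH2 and at 21.7, 15.1 and 18.5 FPKM in DAUDI. MT2A, a metallothionein, stood at 40.7, 0 and 0.326 FPKM in DOHH2 and at 25, 41.4 and 100.3 FPKM in DAUDI. YBX3, a Y-box nucleic acid binding protein, stood at 28.9, 0 and 0 FPKM in DOHH2 and at 26.6, 45.2 and 43.7 FPKM in DAUDI. Each was thus listed at 0 in at least 1 resistant DOHH2 library while present in all 4 others. MID1IP1, TCEAL4, MRFAP1L1, PCBD1, NDRG1, PBDC1, HEBP1, ATL3, SIKE1, TEX30, GSPT2 and HSPA7 likewise had a listed value of 0 in each resistant DOHH2 library. GLUL and NDRG1 were not chosen with a pseudocount of 0.1.

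Of the 30 lowest named genes, 15 had a listed value of 0 in each resistant DOHH2 library and 27 stood at 5 FPKM or more in all 4 other libraries. Among all 203 lower genes at 5 FPKM or more in the WT-labelled DOHH2 library, 35 were listed at 0 in both resistant libraries (17.2%). The same holds for 192 of 7256 genes at that level overall (2.65%), which includes these 35. Any gene at that level and listed at 0 in both resistant libraries meets the DOHH2 part of the rule. The rule and the filter for named genes thus largely set these counts, and nothing is read from them. A value of 0 has no bound without read counts, and the isoform estimate can list 0 for a transcript that is present, so no ratio is given. HSPA7 is a near copy of HSPA6, and reads may be split between them.

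**Figure D2:**
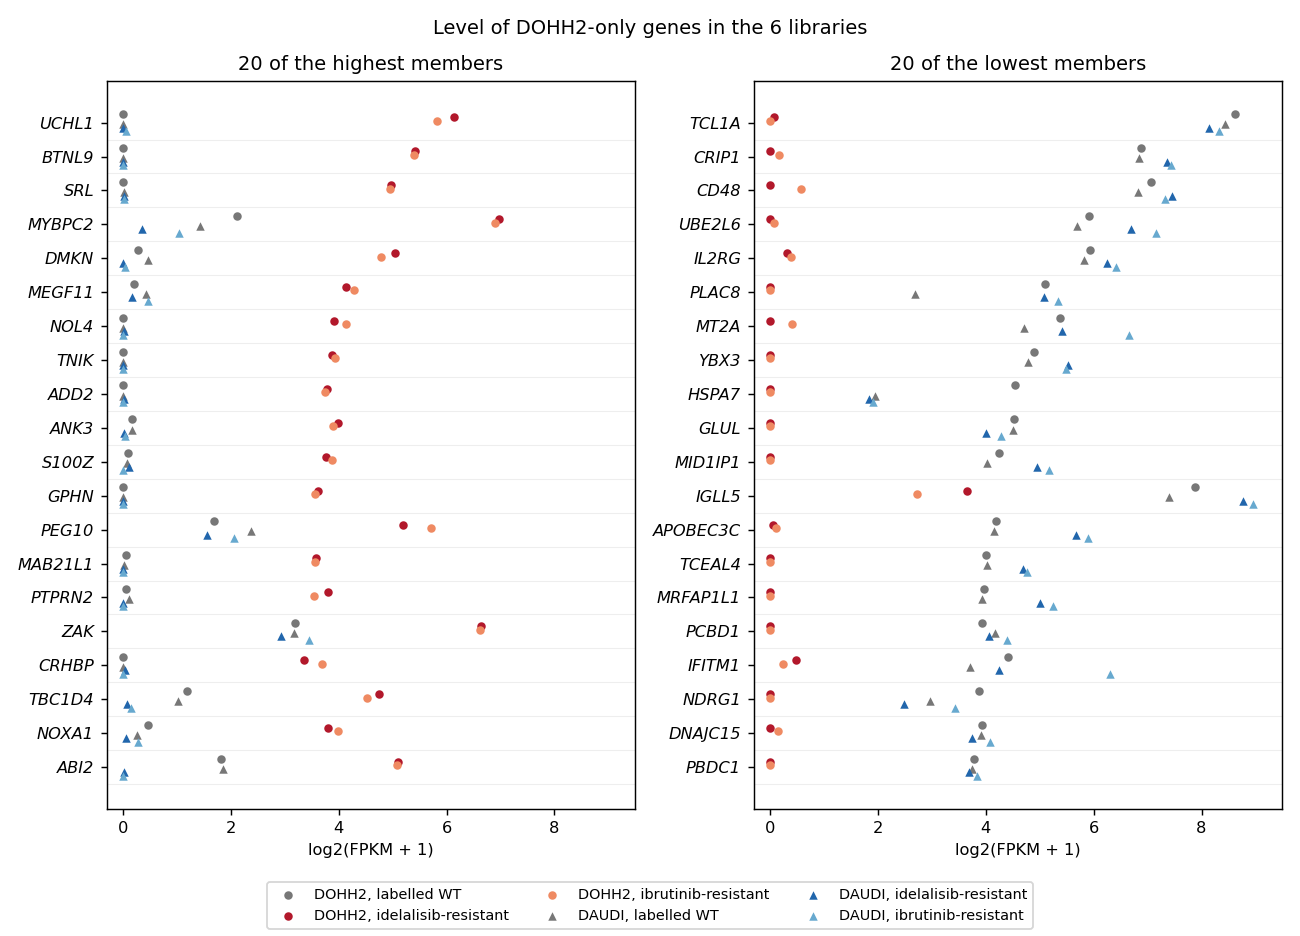
Level of 20 of the highest (left) and 20 of the lowest (right) members in the 6 libraries, as log2(FPKM + 1) on the x axis, with circles for DOHH2 and triangles for DAUDI. The red and orange circles stand apart from all other points in each row. On the left the other points are mostly near 0, and on the right they lie mostly between 3 and 9.

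Interferon-response genes were, by number, the largest listed group among the lower genes. Of 32 tested genes of this list, 12 were DOHH2-only and lower and 0 were DOHH2-only and higher, beside 2.88% and 2.59% of all genes. They included the antiviral effectors ISG15, OAS1, OAS2, IFIT2, IFIT5, IFITM1, GBP1 and IFI35, the RNA sensors IFIH1 and DDX58, and the signal transducer IRF9. ISG15, a ubiquitin-like modifier, stood at 19.1, 1.45 and 1.31 FPKM in DOHH2 and at 16.2, 106 and 185 FPKM in DAUDI. UBE2L6, the enzyme that conjugates ISG15 and a gene outside this list, stood at 59.7, 0 and 0.057 FPKM in DOHH2 and at 50.6, 102 and 141 FPKM in DAUDI. IFITM1, a membrane protein that restricts virus entry, stood at 20.3, 0.398 and 0.175 FPKM in DOHH2 and at 12.1, 18 and 78.3 FPKM in DAUDI. The modifier and its conjugating enzyme were both lowest in resistant DOHH2 and highest in resistant DAUDI.

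Further genes of the list were lowest in resistant DOHH2 as well. IFIH1, which senses viral RNA, stood at 4.39, 0 and 0 FPKM in DOHH2 and at 3.63, 13.4 and 23.5 FPKM in DAUDI. OAS1, which makes the activator of an antiviral RNase, stood at 91.9, 11.2 and 15 FPKM in DOHH2 and at 65.9, 90.6 and 116 FPKM in DAUDI. Both were lower in resistant DOHH2 than in any DAUDI library. The mildest of the 12 was IRF9 at 14.9, 5.95 and 6.29 FPKM in DOHH2 and at 11.6, 15.6 and 25.8 FPKM in DAUDI.

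Over the whole list, the median difference was -1.33 in idelalisib-resistant and -1.41 in ibrutinib-resistant DOHH2, and 1.09 and 2.19 in the DAUDI comparisons, beside all-gene medians of 0.08, 0.03, 0.05 and 0.18. In DOHH2, 18 and 19 of the 32 genes were lower by at least 1 (15.7% of all genes in each comparison) and 2 and 1 were higher (16.0% and 14.9% of all genes). In DAUDI, 16 and 20 were higher by at least 1 (15.3% and 20.2% of all genes) and 3 were lower in each comparison. The list was not uniform in DOHH2, where IFI44, IFI44L, RSAD2 and GBP4 differed by under 0.5 while all of them were higher in DAUDI, and BST2 was higher in both lines. When the WT-labelled libraries were exchanged, or their mean taken for both lines, 11 of the 32 genes were chosen as lower, without GBP1 and IRF9 in the exchange and without IRF9 under the mean. Under a pseudocount of 0.1 the number was 17, and under a pseudocount of 5 it was 5.

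Promoters of genes from this group and from the MHC class I group are shown because members of both groups were lower in resistant DOHH2. They are RefSeq sequences of GRCh38.p14 that end at the base before the annotated start, and capitals mark the letters GAAANNGAAA, the core of the interferon-stimulated response element, searched on both strands with overlapping matches joined. On the reverse strand the letters appear in their complementary form. The promoters are those of ISG15 (chr1:1013347-1013496, plus strand), IFIH1 (chr2:162318685-162318784, minus strand), IFITM1 (chr11:313940-314039, plus strand), HLA-F (chr6:29723234-29723433, plus strand) and TAP1 (chr6:32853705-32853904, minus strand).
ISG15: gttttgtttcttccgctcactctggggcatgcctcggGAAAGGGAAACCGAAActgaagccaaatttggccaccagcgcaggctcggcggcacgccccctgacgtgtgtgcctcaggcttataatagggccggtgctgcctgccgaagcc
IFIH1: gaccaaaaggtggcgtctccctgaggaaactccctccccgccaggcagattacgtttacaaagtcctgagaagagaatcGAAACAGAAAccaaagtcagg
IFITM1: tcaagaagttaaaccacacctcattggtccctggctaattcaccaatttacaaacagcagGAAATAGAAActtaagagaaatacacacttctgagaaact
HLA-F: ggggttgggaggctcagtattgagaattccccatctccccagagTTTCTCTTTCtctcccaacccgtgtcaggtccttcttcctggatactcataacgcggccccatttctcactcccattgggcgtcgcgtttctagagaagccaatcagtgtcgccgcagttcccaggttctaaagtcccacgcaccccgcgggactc
TAP1: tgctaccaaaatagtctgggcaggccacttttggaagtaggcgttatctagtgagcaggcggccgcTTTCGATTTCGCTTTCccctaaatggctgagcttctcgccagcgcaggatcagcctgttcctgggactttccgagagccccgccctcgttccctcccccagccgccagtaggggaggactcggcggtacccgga
A promoter of 300 bases was given for 9 of the 12 interferon genes, and 5 of these 9 hold the motif. Among the 7 of 8 MHC class I genes with a promoter, 4 hold it. The share among all 35116 promoters of the table is 3.57%. The motif is not particular to the DOHH2-only genes of the list, since 13 of the 16 other tested interferon genes with a promoter hold it as well. Only 481 of the 675 genes had a promoter in the table, so a comparison of promoter letters over all members is void.

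Of 17 tested genes of MHC class I and its peptide loading, 8 were DOHH2-only and lower and 0 were DOHH2-only and higher, beside 2.88% and 2.59% of all genes. They included the heavy chain genes HLA-C and HLA-F, the peptide transporter gene TAP1, the tapasin-like gene TAPBPL, the immunoproteasome genes PSMB9 and PSMB10 and the peptide-trimming protease gene ERAP1. HLA-C stood at 373, 114 and 125 FPKM in DOHH2 and at 261, 606 and 742 FPKM in DAUDI. PSMB9 stood at 14.8, 0.675 and 1.49 FPKM in DOHH2 and at 13.0, 81.6 and 106 FPKM in DAUDI. HLA-F stood at 15.2, 0.797 and 1.12 FPKM in DOHH2 and at 10.6, 33.5 and 53.7 FPKM in DAUDI. Resistant DOHH2 was the lowest and resistant DAUDI the highest of the libraries for these genes. TAP1, at 19.2, 6.09 and 9.07 FPKM in DOHH2 and at 15.4, 49.9 and 61.1 FPKM in DAUDI, was among the genes nearest the threshold in the rule. In DOHH2, 9 and 8 of the 17 were lower by at least 1, beside 15.7% of all genes in each comparison. The median of the list was -1.34 and -0.81 in DOHH2, and 0.97 and 1.31 in DAUDI. TAP1 and TAPBPL were not chosen with a pseudocount of 5. HLA-B and HLA-E of the same list differed by under 1 in DOHH2, and reads of HLA genes may be split between near-identical copies.

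**Figure D3:**
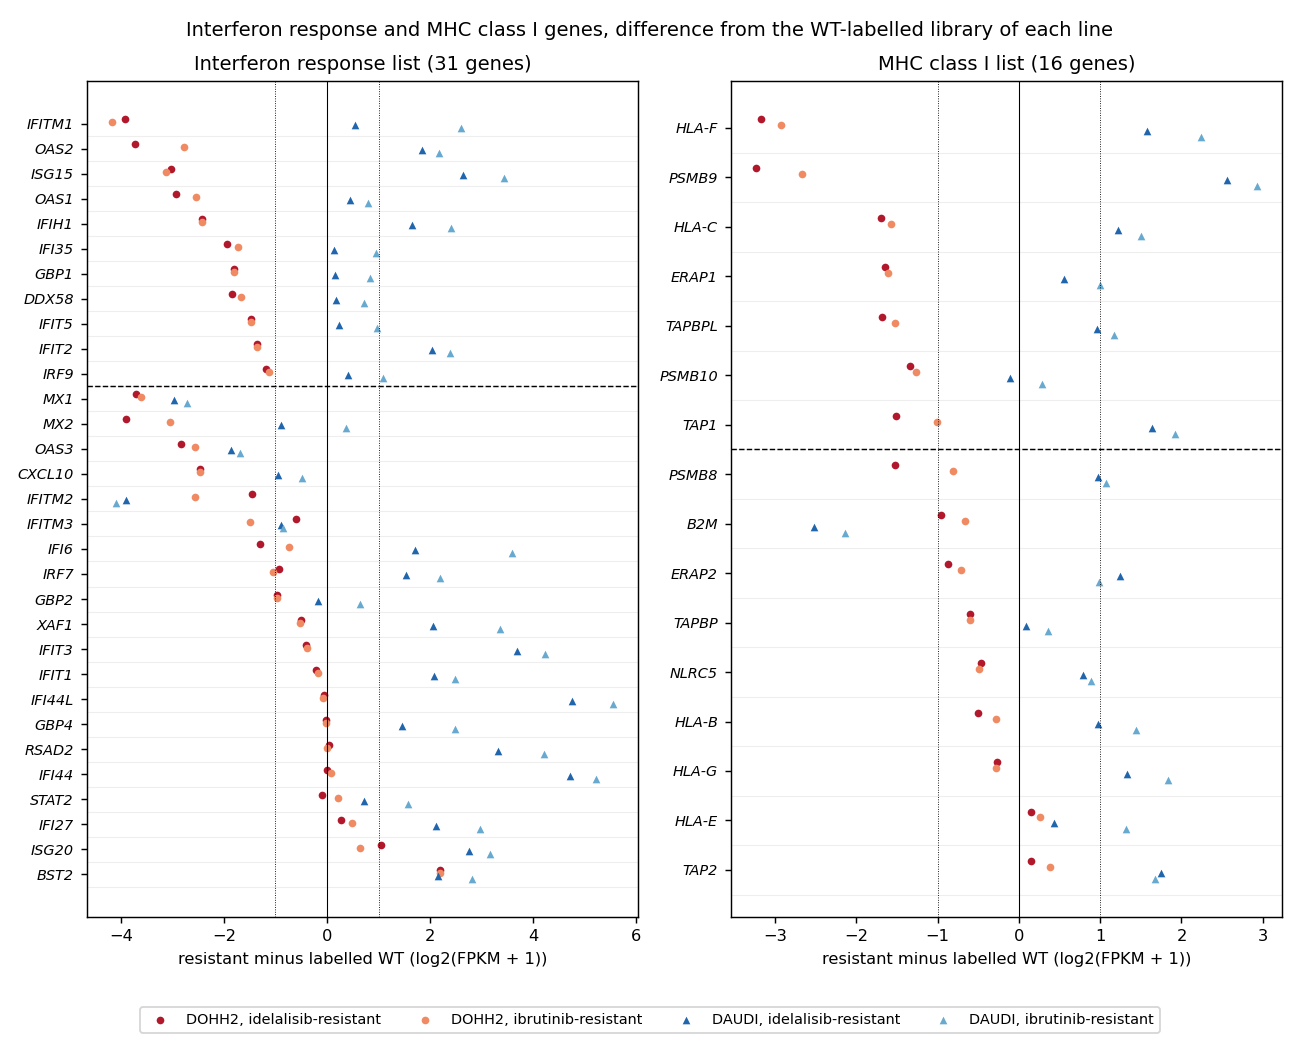
Difference of each resistant library from the WT-labelled library of its line (log2(FPKM + 1), x axis) for 31 interferon-response genes (left) and 16 MHC class I genes (right). Genes above the dashed line are DOHH2-only, and dotted lines mark differences of -1 and 1. The DOHH2 circles of these genes lie below -1, and none of their DAUDI triangles lies below -0.5.

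MHC class II genes were mixed. Of 15 tested, HLA-DQA1, HLA-DPB1, the invariant chain gene CD74 and the class II transactivator gene CIITA were lower and HLA-DRB5 was higher, beside 2.88% and 2.59% of all genes. HLA-DQA1 stood at 29.0, 2.63 and 5.04 FPKM in DOHH2 and at 25.3, 153 and 143 FPKM in DAUDI. CD74 stood at 1557, 755 and 733 FPKM in DOHH2 and at 1463, 2260 and 2532 FPKM in DAUDI. CIITA stood at 13.3, 4.66 and 5.38 FPKM in DOHH2 and at 10.5, 9.44 and 8.46 FPKM in DAUDI, so it was slightly lower in resistant DAUDI as well. HLA-DRB5, at 15, 34.1 and 31.1 FPKM in DOHH2 and at 11.9, 6.52 and 7.99 FPKM in DAUDI, shares sequence with the other DRB genes. Only HLA-DQA1 of the lower genes and HLA-DRB5 were chosen again with the WT-labelled libraries exchanged.

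Receptors and signalling genes of cytokines came next. Of 21 tested cytokine receptor genes 4 were lower, IL2RG, IL4R, IL15RA and CSF2RB, and 0 were higher, beside 2.88% and 2.59% of all genes. IL4R stood at 20.3, 2.76 and 1.42 FPKM in DOHH2 and at 16.2, 96.8 and 106 FPKM in DAUDI. IL15RA stood at 2.68, 0 and 0 FPKM in DOHH2 and at 3.01, 1.85 and 3.98 FPKM in DAUDI. The chains IL2RG and IL4R, which together form a receptor for IL4, were thus both lower in resistant DOHH2. Within the JAK STAT list the feedback inhibitor SOCS1 was lower and STAT5A was higher, the latter at 2.36, 11.7 and 13.5 FPKM in DOHH2 and at 2.14, 1.03 and 1.24 FPKM in DAUDI. Among the cytokine and chemokine genes, CCL4 and FLT3LG were lower and IL18 was higher, at 0, 5.60 and 10.6 FPKM in DOHH2 and at 0.369, 0 and 0 FPKM in DAUDI. CXCR4, the receptor that guides B cells within lymphoid tissue, stood at 181, 64.1 and 60.6 FPKM in DOHH2 and at 132, 199.8 and 177 FPKM in DAUDI.

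Of 22 tested NF-kB genes 3 were DOHH2-only and lower, and of 18 tested TNF family and receptor genes 2 were, beside 2.88% of all genes. None of either list was DOHH2-only and higher. LTB, lymphotoxin beta, stood at 13.8, 0.982 and 1.12 FPKM in DOHH2 and at 7.35, 173 and 158 FPKM in DAUDI. TNFRSF14, an immune checkpoint receptor often mutated in follicular lymphoma, stood at 9.75, 0.097 and 0.300 FPKM in DOHH2 and at 6.86, 11.1 and 11.1 FPKM in DAUDI. TRAF5, an adaptor of TNF receptors, stood at 5.77, 0.090 and 0.172 FPKM in DOHH2 and at 6.87, 24.4 and 18.5 FPKM in DAUDI. The inhibitor of apoptosis gene BIRC3 and the adaptor gene TRAF1 were the others. Of the 22 NF-kB genes, 15 were lower by at least 1 in each DOHH2 comparison (15.7% of all genes) and 10 in each DAUDI comparison (15.8% and 14.6% of all genes). BIRC3 and TRAF1 were not chosen with a pseudocount of 5.

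Of 15 tested genes of the BCL2 family 3 were DOHH2-only and lower, and of 17 tested caspase and death receptor genes CASP1, CASP4 and BIRC3 were, beside 2.88% of all genes. Those of the BCL2 family were the anti-apoptotic BCL2L1 and the pro-apoptotic BBC3 and BIK. BCL2L1 stood at 18, 6.204 and 5.55 FPKM in DOHH2 and at 24.6, 29.8 and 39.7 FPKM in DAUDI. BIK stood at 3.76, 0 and 0 FPKM in DOHH2 and at 0.658, 13.2 and 10.2 FPKM in DAUDI. BBC3, also known as PUMA, stood at 20.5, 9.02 and 7.01 FPKM in DOHH2 and at 24.0, 17.8 and 25.7 FPKM in DAUDI. The inflammatory caspase genes CASP1 and CASP4 lie next to each other on chromosome 11 with CARD16. CASP4 stood at 4.62, 0.185 and 0.081 FPKM in DOHH2 and at 5.05, 29.9 and 39.7 FPKM in DAUDI. CASP1 stood at 3.27, 0.160 and 0.180 FPKM in DOHH2 and at 2.34, 10.7 and 23.3 FPKM in DAUDI. All 3 neighbours were lower in resistant DOHH2, and CARD16 shares sequence with CASP1. CASP1, CASP4, BIK and BBC3 were not chosen with a pseudocount of 5.

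Other listed genes among the lower members were TLR9 and IRF5 of the Toll-like receptor pathway, HMGCS1 and IDI1 of cholesterol synthesis, and HERPUD1 and FAM46C of the plasma cell list. TLR9, which senses unmethylated DNA, stood at 34.8, 11.9 and 11.7 FPKM in DOHH2 and at 24.2, 22.2 and 17.4 FPKM in DAUDI. HMGCS1 stood at 69.9, 25.5 and 26.4 FPKM in DOHH2 and at 69.1, 66.2 and 98.0 FPKM in DAUDI. HERPUD1, a component of degradation at the endoplasmic reticulum, stood at 144, 51.0 and 52.2 FPKM in DOHH2 and at 125, 102 and 149.7 FPKM in DAUDI. The resistant DOHH2 libraries were the lowest for each of them. Of 24 tested cholesterol genes 5 and 7 were lower by at least 1 in DOHH2, beside 15.7% of all genes in each comparison. ABCB4, a phospholipid transporter, stood at 1.84, 0.121 and 0.102 FPKM in DOHH2 and at 1.89, 33.4 and 45 FPKM in DAUDI.

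The leading higher genes were mostly near 0 in the other libraries. Of the 30 highest named genes, 24 stood under 1 FPKM in all 4 other libraries, and of all 320 higher genes 103 stood under 0.5 FPKM in all 4. Such genes passed the filter of 1 FPKM only through the resistant DOHH2 libraries. The filter and the rule thus largely set these counts, no share over all genes is given, and nothing is read from them. UCHL1, a deubiquitinase abundant in neurons and present in germinal centre B cells (chr4:41258898-41270446, hg19), stood at 0, 69.7 and 55.9 FPKM in DOHH2 and at 0, 0 and 0.044 FPKM in DAUDI. BTNL9, a butyrophilin-like gene, stood at 0, 41.4 and 40.9 FPKM in DOHH2 and was listed at 0 in all 3 DAUDI libraries. SRL, which encodes the calcium store protein sarcalumenin of muscle, stood at 0.0071, 30.2 and 30.1 FPKM in DOHH2 and at 0.014, 0.020 and 0.019 FPKM in DAUDI. These transcripts were abundant in both resistant DOHH2 libraries and at or near 0 elsewhere.

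The UCHL1 promoter is shown as that of the highest named gene, over the 100 bases before the start site in RefSeq (GRCh38.p14, chr4:41256828-41256927, plus strand), with capitals on TTTATA, the reverse-strand form of TATAAA.
UCHL1: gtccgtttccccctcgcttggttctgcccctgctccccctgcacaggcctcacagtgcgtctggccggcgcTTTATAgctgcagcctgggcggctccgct
The differences of UCHL1 were 6.14 and 5.83 in DOHH2 and 0 and 0.06 in DAUDI. With a pseudocount of 0.1 UCHL1 was not chosen.

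MYBPC2, a myosin-binding protein of fast muscle, stood at 3.31, 125 and 118 FPKM in DOHH2 and at 1.68, 0.275 and 1.06 FPKM in DAUDI. TNIK, a kinase of the Wnt and JNK pathways, stood at 0, 13.8 and 14.2 FPKM in DOHH2 and at 0, 0 and 0.0073 FPKM in DAUDI. ZAK, a kinase of the ribosomal stress response, stood at 8.07, 98.7 and 96.9 FPKM in DOHH2 and at 8.04, 6.597 and 9.995 FPKM in DAUDI. ZAK was the only one of the 30 highest named genes at 5 FPKM or more in all 4 other libraries, and MLK7-AS1, which overlaps it, and the neighbour RAPGEF4 were also higher. TBC1D4, a Rab regulator phosphorylated by AKT, stood at 1.28, 25.9 and 22.1 FPKM in DOHH2 and at 1.03, 0.056 and 0.113 FPKM in DAUDI. PEG10, an imprinted gene derived from a retrotransposon, stood at 2.22, 35.7 and 51.2 FPKM in DOHH2 and at 4.17, 1.95 and 3.14 FPKM in DAUDI. The cytoskeletal adaptors ADD2 and ANK3, the receptor-anchoring gene GPHN, the phosphatase-like PTPRN2, the cGMP phosphodiesterase PDE9A and the vesicle gene CADPS all stood at 7.58 to 14.8 FPKM in resistant DOHH2 and at or below 0.413 FPKM in the other 4 libraries. CADPS was not chosen with a pseudocount of 0.1.

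Several pathway genes were also higher. LEF1, a transcription factor of the Wnt pathway, stood at 2.44, 20.2 and 16.4 FPKM in DOHH2 and at 1.74, 0.143 and 0.113 FPKM in DAUDI. ITGAL, the alpha chain of the integrin LFA-1, stood at 19.8, 97.9 and 87.7 FPKM in DOHH2 and at 25.3, 15.8 and 28.5 FPKM in DAUDI. ITGAL was thus elevated over libraries that also contain it, unlike most of the top genes. HSPA8, the constitutive HSP70 chaperone, was the most abundant higher gene of the lists, at 261, 740.2 and 718 FPKM in DOHH2 and at 289, 339 and 175 FPKM in DAUDI. PRKACB, a catalytic subunit of protein kinase A, stood at 11.9, 37.3 and 38.7 FPKM in DOHH2 and at 15.2, 19.1 and 15.9 FPKM in DAUDI. HDAC2, MCM7, SOD2, TUBB2A, GNAZ, DDR1, DUSP7, MGST3 and ALDH2 were further higher genes of the lists, with differences between 1.05 and 1.96. With a pseudocount of 5 only TUBB2A and GNAZ of these were chosen. MCM7, SOD2, MGST3 and ALDH2 were not chosen with median of ratios scaling, nor DDR1 with a pseudocount of 0.1.

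A subset of members differed the opposite way in DAUDI. By at least 1 in all 4 comparisons, 35 genes (10.9% of the higher) were higher in resistant DOHH2 and lower in resistant DAUDI. The reverse held for 77 (21.7% of the lower). Every tested gene with such differences meets the rule, so these are also the counts among all 12337 genes. In the DAUDI comparisons 15.8% and 14.6% of all genes were lower by at least 1, and 15.3% and 20.2% higher. The rule limits the DAUDI differences of members, so nothing is read from the counts. AKR1B1, aldose reductase, stood at 11.5, 55.9 and 52.0 FPKM in DOHH2 and at 15.9, 0 and 0.017 FPKM in DAUDI. PHGDH, which starts serine synthesis, stood at 26.3, 115 and 74.9 FPKM in DOHH2 and at 9.24, 0.030 and 0.044 FPKM in DAUDI. CTPS2, a CTP synthase, stood at 8.91, 36.4 and 32.3 FPKM in DOHH2 and at 9.81, 0.022 and 0 FPKM in DAUDI. For these metabolic genes the WT-labelled libraries lay between the resistant DOHH2 and the resistant DAUDI libraries. RGS9, a regulator of G proteins, stood at 14.5, 49.8 and 65.9 FPKM in DOHH2 and at 18.4, 0.716 and 0.928 FPKM in DAUDI. GYG1, the primer protein of glycogen, stood at 10.7, 34.6 and 27.3 FPKM in DOHH2 and at 12.8, 0.017 and 0.205 FPKM in DAUDI. In the other direction, OAS2 stood at 36.0, 1.78 and 4.43 FPKM in DOHH2 and at 27.7, 102 and 129 FPKM in DAUDI. ITGB7, a gut-homing integrin chain, stood at 11, 1.71 and 1.83 FPKM in DOHH2 and at 7.95, 29.6 and 38.1 FPKM in DAUDI, and LTB, ISG15, PSMB9, IL4R and HLA-DQA1 led this set.

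**Figure D4:**
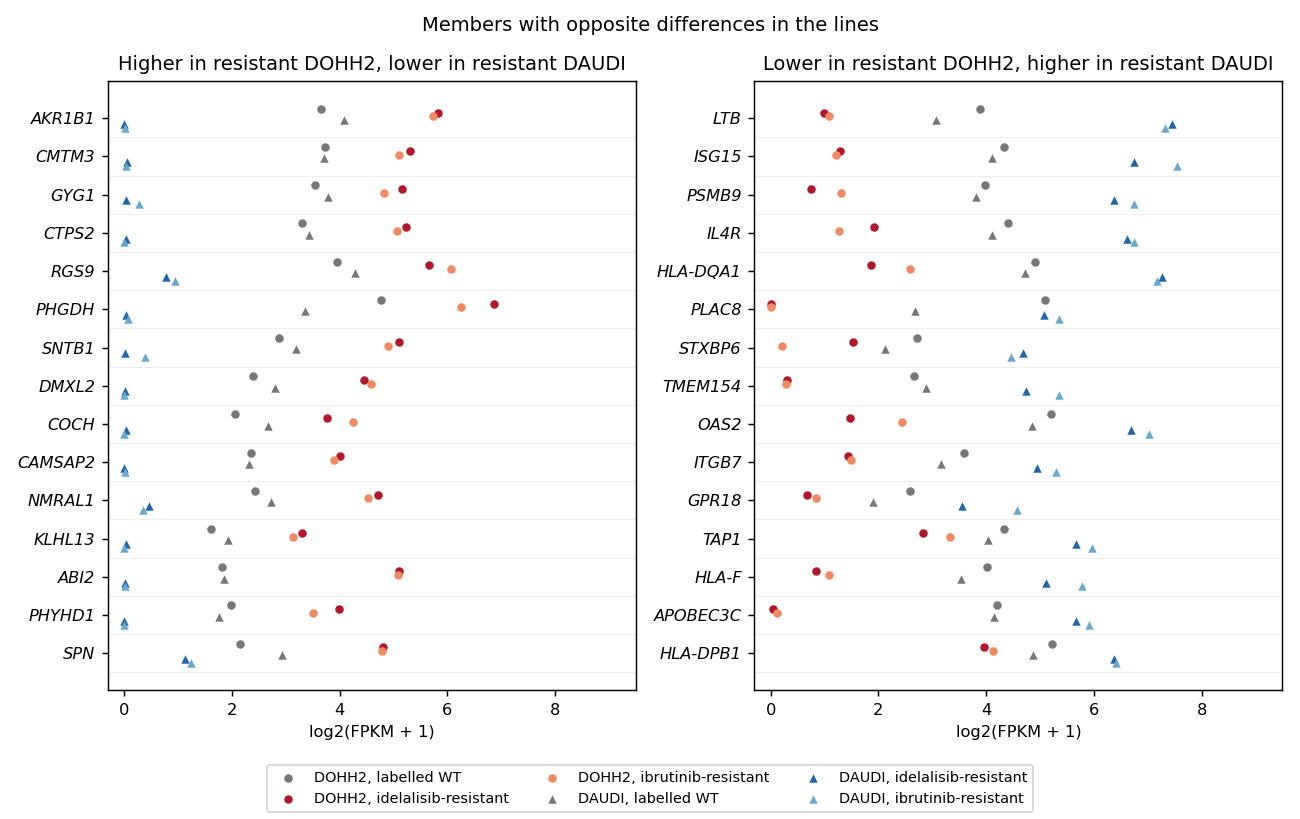
Level in the 6 libraries (log2(FPKM + 1), x axis) of the 15 named genes in each direction with the largest opposite difference in DAUDI. Apart from PLAC8, the WT-labelled libraries (grey) lie between the levels of the resistant DOHH2 circles and the resistant DAUDI triangles.

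Between the resistant DOHH2 cultures 7 higher and 5 lower genes were apart by at least 1 (2.19% and 1.41%), beside 133 of all genes (1.08%). The widest gap was that of BDKRB2, a bradykinin receptor, at 0, 8.15 and 1.24 FPKM in DOHH2. DMC1, a meiotic recombinase, had the reverse order, at 0.454, 5.42 and 13.3 FPKM. CNTNAP5 and STXBP6 were next in size, at 0, 8.45 and 2.58 FPKM and at 5.61, 1.88 and 0.153 FPKM. Without replicate libraries these gaps have no measure of error.

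At the edge of the rule, NDUFB2 and HLA-DRB5 were the last higher genes inside, with smaller differences of 1.0006 and 1.0056, and GREB1 and FAHD2B the nearest outside, at 0.9955 and 0.9952. On the lower side ABHD14A and TAP1 were inside by their differences of -1.0018 and -1.0029, and COMMD7 and THUMPD2 were outside at -0.9988 and -0.9970. Genes on either side of the edge thus have nearly the same smaller absolute difference. Their other difference can be far apart, as for COMMD7 at -3.55 in ibrutinib-resistant DOHH2.

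Isoform shares could be followed for 45 member genes that had several isoforms and reached 10 FPKM in the WT-labelled and a resistant library. In 5 of them an isoform's share differed by at least 50 percentage points, and in PRKACB and SNHG8 it did so in both resistant DOHH2 libraries. No share over genes outside the members is given, so these counts are not read as a trait of the members. The PRKACB isoform NM_182948 made up 20.7% of the gene's FPKM in the WT-labelled DOHH2 library and 78.2% and 77.5% in the resistant ones. In DAUDI it made up 27.3%, 88.4% and 88.7%, so the isoform share differed in both lines while the gene's level met the rule in DOHH2 alone. For SNHG8, a small nucleolar RNA host gene, the isoform NR_034011 went from 24.5% to 81.3% and 78.0% in DOHH2, and in DAUDI it made up 23.6%, 54.1% and 44.4%. This isoform is 274 nt long, under the 300 nt below which features were kept out of the named genes.

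By position, the higher genes were most frequent on chromosome 7, with 40 of 609 tested genes (6.57%), beside 2.59% over all chromosomes. The median gap between resistant DOHH2 and resistant DAUDI over all tested genes of chromosome 7 was 0.23, beside -0.04 over all chromosomes. The lower genes were most frequent on chromosome 22, with 18 of 313 (5.75%), and 0 of 116 genes of chromosome 21 were lower. Chromosome numbers of the cultures were not measured. Members next to each other in the list of tested genes, with the same direction, formed 36 runs with 75 genes, 26 of the runs lower. Some neighbours arise in any choice of this many genes, and no background count is given, so no clustering is read from these runs. Besides CASP4, CASP1 and CARD16, they included TAP1 with PSMB9, BTN3A1 with BTN3A3, SAMD9 with SAMD9L and IRF9 with REC8 among the lower genes. Among the higher genes they included S100Z with CRHBP, PLAU with VCL, and CCDC78, HAGHL and NARFL.

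**Figure D5:**
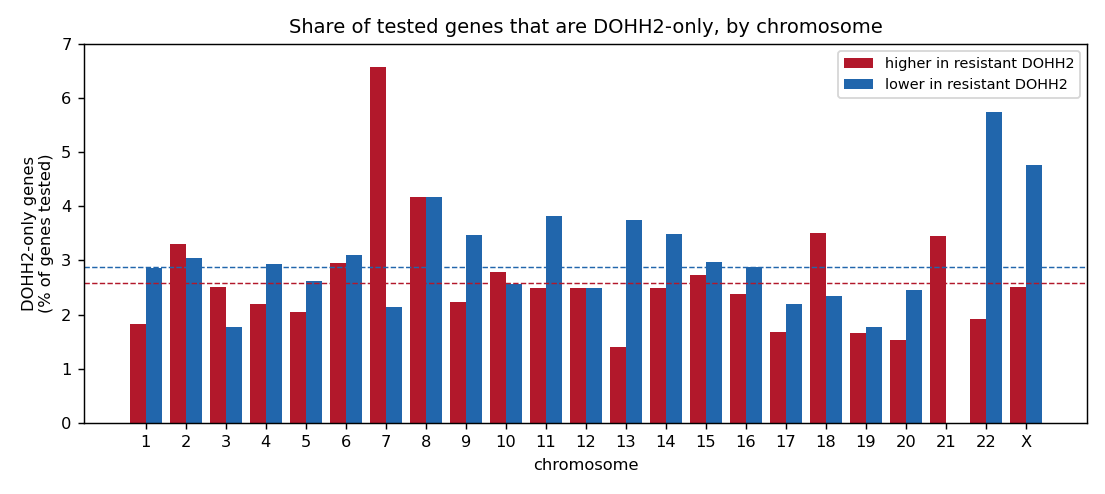
Percent of the tested genes of each chromosome (x axis) that were DOHH2-only and higher (red bars) or lower (blue bars), with dashed lines at the shares over all chromosomes. The tallest red bar is chromosome 7 at 6.57% and the tallest blue bar chromosome 22 at 5.75%.

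The drug targets were not among the members. BTK stood at 72.1, 101 and 109 FPKM in DOHH2 and at 68.4, 112 and 115 FPKM in DAUDI. PIK3CD stood at 34.3, 13.6 and 12.2 FPKM in DOHH2 and at 36.7, 13.2 and 15.3 FPKM in DAUDI. Both genes were thus placed alike in the lines. Of 29 tested genes of B cell receptor signalling only the adaptor LAX1 was DOHH2-only, at 1.46, 0 and 0 FPKM in DOHH2 and at 1.33, 6.66 and 5.02 FPKM in DAUDI. None of 17 B cell identity genes, 16 memory and activation genes, 11 SRC and TEC family kinase genes, 16 MYC network genes or 18 cyclin and CDK inhibitor genes met the rule, which 5.47% of all genes did, so lists of these sizes can hold none and nothing is read from their zeros. In the memory and activation list 12 genes were lower by at least 1 in each DOHH2 comparison (15.7% of all genes) and 10 in each DAUDI comparison (15.8% and 14.6% of all genes).

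Markers of B cells were present throughout, with 15 of 17 identity genes at 1 FPKM or more in every DOHH2 library. Haemoglobin genes were a small group of lower members: HBA1, HBA2 and HBB stood at 2.05, 1.96 and 3.39 FPKM in the WT-labelled DOHH2 library and were listed at 0 in both resistant ones. Of 13 erythroid and megakaryocyte markers, 3 stood at 1 FPKM or more in the WT-labelled DOHH2 library and none in any other library, with summed levels of 7.60 FPKM there and 0.0091 to 0.214 FPKM elsewhere. HBA1, HBA2 and HBB are defining markers of red cells. The T and NK cell list held 1 or 2 of 18 markers at 1 FPKM in the DOHH2 libraries, with sums of 23.4, 1.49 and 3.28 FPKM, and its member CD3E stood at 0, 1.32 and 2.55 FPKM. Its sums in DAUDI were 18.9, 4.14 and 6.68 FPKM. The highest marker stood at 15.5 FPKM in the WT-labelled DOHH2 library and 15.1 FPKM in that of DAUDI. The myeloid list held 2 or 3 of 17, with sums of 32.9, 32.1 and 29.6 FPKM. Its lower member S100A9 stood at 1.30, 0 and 0 FPKM in DOHH2 and at 0, 1.58 and 0.290 FPKM in DAUDI. DEFA1 and DEFA3, lower members outside this list, stood at 1.66 and 1.14 FPKM in the WT-labelled DOHH2 library and at 0 in both resistant ones. The stromal and epithelial list held 2 or 3 of 17, with sums of 31.4, 5.87 and 10.2 FPKM, and its member DCN stood at 0.268, 3.18 and 7.31 FPKM. Its sums in DAUDI were 30.3, 6.55 and 20.6 FPKM. The highest marker stood at 26.6 FPKM in the WT-labelled DOHH2 library and 26.0 FPKM in that of DAUDI. The neural list held 1, 3 and 3 of 16, with sums of 7.39, 406 and 330.4 FPKM, against 7.48, 19.9 and 16.7 FPKM in DAUDI, and included UCHL1 and MAP2 among the members. A single marker that is not a member, the tubulin gene TUBB3, gave 329 and 269 FPKM of the sums in resistant DOHH2, where 10 of the 16 markers were at 0, beside 8 in the WT-labelled library. Whether any of these cell types were present, and what part they would have in the other differences, was not tested.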

How the data were processed

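The data are 1 polyA RNA library from each of 6 cultures; the kit is directional, per the labels' protocols. Per the submitters' processing notes, the tools were bcl2fastq, cutadapt, TopHat2 and Cufflinks and the genome build was hg19. No tool version is given in the sources used. The authors deposited FPKM for 43490 RefSeq isoforms per library. Per the file headers the tables also hold a coverage signal, used here for relative depth, and each isoform's length, another deposited value.

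FPKM were summed over isoforms by gene name and log2(FPKM + 1) was taken, a scale that understates ratios of weakly expressed genes. Isoforms without a gene name (528) and genes holding a failed estimate (10) were dropped. A gene was kept if any of the 6 libraries reached 1 FPKM, which left 12337. Called means a difference of at least 1. Absolute depth is unknown without counts; coverage per FPKM, against the WT-labelled DOHH2 library, was 0.996 and 0.955 in idelalisib-resistant and ibrutinib-resistant DOHH2 and 1.02, 1.06 and 1.45 in the DAUDI libraries, and 10279 to 10687 genes reached 1 FPKM per library.

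Samples were grouped by the line and resistance of their labels. With 1 library per group there is no replicate error and no test. The members, the 50 gene lists (748 names tested) and the comparisons were chosen with earlier results of these data known. Named are BTK and PIK3CD; the 30 highest and 30 lowest members by the smaller of both DOHH2 differences, at 5 FPKM or more in a DOHH2 library, without features under 300 nt, small RNAs, immunoglobulin segments and unnamed loci; 15 each way with the largest opposite DAUDI difference; 5 on each side of the threshold; list members; neighbouring members; the 10 widest gaps between the resistant DOHH2 libraries; and 6 isoform shares, with some left out of the text. IFI44, IFI44L, RSAD2, GBP4, BST2, HLA-B and HLA-E are not members and were chosen after their values were seen. Promoters are RefSeq sequences of GRCh38.p14, 250 bases before to 50 after a start, matched by symbol for 481 of 675 members. Results for a few members are not reported here. Gene coordinates are those of the deposited tables. The steps were tested on simulated data. Python 3.11.15, pandas 2.3.3, numpy 2.4.6 and matplotlib 3.10.9 were used.

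Settings tried were pseudocounts of 0.1 and 5, other filters, scalings, thresholds and DAUDI bands, each resistant DOHH2 library alone, the most abundant isoform in place of the sum and the WT-labelled libraries exchanged; their mean as reference, and leaving both out, were added after seeing the data.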

Additional observations from a re-analysis of the deposited data

Results flagged for a closer look

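Some members differed in opposite directions in the lines. In both comparisons of each line, 66 genes were higher in resistant DOHH2 and lower by at least 0.5 in resistant DAUDI, 35 of them by at least 1, and 125 genes were lower in resistant DOHH2 and higher in resistant DAUDI, 77 of them by at least 1. The difference between the lines was not tested, since each group has 1 library. The rule itself admits every gene with such differences, so nothing is read from these counts. The mean DOHH2 difference minus the mean DAUDI difference was 6.20 for AKR1B1, 5.32 for RGS9, 5.25 for CTPS2, 5.15 for CMTM3 and 5.08 for GYG1 on the log2 scale. It was -7.17 for LTB, -6.11 for ISG15, -5.70 for PSMB9, -5.40 for IL4R and -5.18 for HLA-DQA1. In these genes the resistant libraries of a line lay on one side of its WT-labelled library, and those of the other line on the opposite side. Both WT-labelled libraries are nearly alike, so line of origin and resistance cannot be told apart here.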

How the results depend on the processing

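Most settings left the number of DOHH2-only genes within 1.5 times of 320 higher and 355 lower. The exceptions were a pseudocount of 5, with 174 higher and 156 lower, a DAUDI band of 1, with 598 and 592, and a DOHH2 difference of at least 2, with 84 and 109; the wider band, the larger difference and the larger pseudocount change the strictness of the rule by construction. With the WT-labelled libraries exchanged between the lines 320 and 327 genes met the rule, with their mean as the reference of each line 298 and 294. These libraries are nearly alike, so both settings return many of the same genes by construction. Against the resistant DAUDI libraries alone 247 and 269 of the members stood at least 1 apart, which the choice of genes largely sets. Of 166 named members, 137 were chosen again after the exchange, 147 with the mean, 153 and 108 with pseudocounts of 0.1 and 5, 142 with a DAUDI band of 0.25, 90 with a DOHH2 difference of at least 2 and 154 with the most abundant isoform. With a pseudocount of 5, 42.2% of the higher and 35.8% of the lower genes were chosen again, and among the named members lost were LAX1, HDAC2, SOD2, CIITA and IL15RA. Median of ratios scaling moved the median of all genes from 0.08 to -0.04 in idelalisib-resistant DOHH2 and from 0.18 to -0.02 in ibrutinib-resistant DAUDI, and 151 of the 166 named members were chosen again. No paired analysis was possible because each group has 1 library. Without counts, low levels and values listed at 0 have no error, so differences of genes under a few FPKM are the least certain. Members rest on 1 WT-labelled library per line.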
